A study of Danio rerio with 12 samples.

Results

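The sham-operated eye of the zebrafish is described here from the 6 arrays titled SHAM, of the 12 arrays in the signal table, with 2 arrays at each of 4, 12 and 21 days after the operation. Each array holds RNA from a pool of 5 whole eyes, with retina, lens, vitreous and the anterior and posterior segments, of wild-type adult male fish. Per the labels' protocols the right eye was pulled gently from the orbit under anaesthesia with MS222 and put back with its nerve intact, while the left optic nerve of the same fish was crushed. The sham eye is therefore not the eye of an unoperated fish: it was handled, and its fish carried a nerve injury on the other side. No array of a crushed eye (ONX) was used, and unoperated eyes were not analysed here. The 2 pools of a day are titled biological replicates, and each day's pools are a collection of their own, so time since the operation and collection cannot be told apart. Fish were kept on a 14:10 light-dark cycle, and the labels do not give the hour at which eyes were taken.

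A whole fish eye mixes many tissues, and a signal from it sums over all of them. Rods and cones turn light into a nerve signal through an opsin, a G protein called transducin and a phosphodiesterase, interneurons pass that signal on, and ganglion cells send it to the brain along axons that glial cells wrap in myelin. The lens is filled with crystallins, the cornea is a collagen stroma under a layered epithelium rich in keratins, and the eye muscles and blood that come away with the eye add contractile proteins and haemoglobin. The zebrafish eye also runs its own circadian clock, in which light-induced and clock-driven repressors such as Per, Cry and Rev-erb proteins damp the activators Clock and Bmal.

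Signals are given as log2(signal + 16), and pairs of values are given as pool 1 and then pool 2. Signals of different probe sets depend on their probes and are not set against each other. Every array had the same trimmed mean signal, 500.1 after leaving out 2% at each end, and median signals lay between 199.9 and 210.1. Of 15502 probe sets that are not array controls, the 9301 with the highest mean over the 6 arrays were tested, down to a mean of 7.22 or a signal of 133. They hold 5924 named genes. Spearman's correlation across these probe sets was 0.969 between the day 4 pools, 0.960 between the day 21 pools and 0.936 between the day 12 pools, the lowest of all 15 pairs of arrays. The number of probe sets that differed by more than 1 between pools of a day was 97 at day 4, 127 at day 21 and 349 at day 12.

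The library labelled SHAM day 12 pool 1 stood apart before any comparison of days. It held 41 probe sets more than 1 above all 5 other arrays, against 0 to 11 on each of the others. Probe sets more than 1 below all 5 others were most frequent in day 12 pool 2, with 19. Day 12 pool 1 held 11 of that kind, and the remaining arrays 1 to 7 each. The gene for growth-associated protein 43, gap43, which marks regrowing axons, read 7.65 and 7.73 at day 4, 12.68 and 7.85 at day 12 and 10.15 and 9.18 at day 21. Pool 1 of day 12 was thus far above every other sham pool for a gene of nerve regrowth, although its label says that the nerve was intact. Whether its label is right, or whether eyes with a crushed nerve entered the pool, was not tested, and every day 12 mean below includes it unless stated. Its hybridisation controls, which are added to every sample before hybridisation, had a mean of 10.65, while those of the other 5 arrays had means from 10.80 to 10.97. The 3′ minus 5′ gap of the gapdh control, a measure of RNA quality, lay between 0.63 and 0.80 on all 6 arrays. The part of the controls in the results was not tested. Scaling arrays to the hybridisation controls made this library the highest for 4673 of the 9301 tested probe sets in place of 1989, and the lowest for 458 in place of 1966. It put both day 4 pools below the other 4 in 2051 in place of 861, and above them in 155 in place of 845. Both day 12 pools were then below in 153 in place of 668. Counts under that scaling are read against these numbers. Counts of list members by array order or unadjusted p that a scaling moved by more than 1.5 times are given both ways.

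Genes of the eye's own tissues shared the top of the signal range with genes of general cell functions. Signals depend on the probes, so this rank does not order transcripts by amount. The 60 brightest probe sets stand for 55 genes, and 20 of these genes encode ribosomal proteins. A translation factor and 12 genes of other roles, such as actb2 and gapdhs, were also among them. Lens crystallins gave 6 genes, among them crygs1, whose signal lay between 15.37 and 15.62 on the 6 arrays. Cone opsins gave 4 genes, opn1sw1, opn1sw2, opn1mw2 and opn1lw1, for ultraviolet, blue, green and red light. A further 5 genes belong to the cone cascade, namely gnat2, gnb3b, gngt2b, pde6ha and pde6hb, and 2 to the rod cascade, gnat1 and gngt1. Surface epithelium gave 3 genes, the keratins krt5 and krt91 and icn, an S100 calcium-binding protein, and mitochondrial COX1 gave 3 probe sets. Red blood cells gave hbaa1, an alpha globin. Markers of each expected compartment were thus present in every pool: the brighter of 2 probe sets of rpe65a, the retinoid isomerase of the pigment epithelium, lay between 12.79 and 13.39, and the muscle creatine kinase ckma between 11.97 and 12.97.

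These bright signals also varied less between arrays than the rest. The range over the 6 arrays had a median of 0.31 among the 60 probe sets, against 0.519 among all tested probe sets. Signals near the filter limit carry more noise from background, so this gap cannot be read as steadier expression. The actin-binding thymosin tmsb4x varied least, by 0.061. At the other end hbaa1 varied by 1.385, from 13.44 in day 21 pool 1 to 14.82 in day 12 pool 2. Of the 60 probe sets, 31 were lowest in day 12 pool 1, an array that was lowest for 21.1% of all tested probe sets. That count was 19 with quantile normalization and 7 with scaling to the hybridisation controls. Among all tested probe sets, 1048 or 11.3% varied by more than 1, and 124 by more than 2.

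No gene passed the test for a difference between days. In the moderated F-test of limma on the 6 arrays, 0 of 9301 probe sets had an adjusted p under 0.05 (0%), and the smallest adjusted p was 0.0916. The 3 pairs of days also gave 0 calls each (0%), with smallest adjusted p values of 0.0731 for day 12 against day 4, 0.264 for day 21 against day 4 and 0.0608 for day 21 against day 12. At an unadjusted p under 0.05, 617 probe sets (6.63%) stood out in the F-test. The pairs of days gave 589, 610 and 571 at that level, in the same order. With day 12 pool 1 left out, 15 probe sets passed for day 12 against day 4, all lower at day 12, among them krt15, krt17, anxa1c, stxbp6l and mbpa. With day 12 pool 2 left out, probe sets passed in both directions. Those higher at day 12 included axon growth genes such as gap43, by 4.99, and tubb5, by 4.75. Those lower included anxa1c, by -1.62. The lone day 12 array is then assumed to vary like the others, and leaving out each of the other 4 arrays gave 0 calls. The values below therefore describe these pools, and counts at an unadjusted p are read against the share of all tested probe sets.

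Of the 15 named probe sets with the smallest F-test p, 13 had both day 12 pools lowest. Ranking by this p picks probe sets in which a day stands apart. The share of 7.18% among all tested probe sets is therefore no baseline for the 13. The most extreme was stxbp6l, related to a protein that binds the membrane fusion machinery in mammals, at 10.25 and 9.93 on day 4, 7.97 and 8.02 on day 12 and 10.33 and 9.95 on day 21. Its 2 day 12 pools lay well below the other 4 and close to each other. Day 12 was below day 4 by -2.09 ± 0.19 (SE; limma, adjusted p = 0.0731), and day 21 was above day 12 by 2.14 ± 0.19 (adjusted p = 0.0608). Uncharacterised genes with the same shape were si:ch211-207n23.2, with 10.47 and 10.51, then 9.01 and 9.15, then 10.12 and 10.36, and si:dkey-238c7.13, with 14.12 and 14.03, then 13.08 and 13.03, then 13.57 and 13.62. In both, the pools of day 12 were the lowest 2 of 6. The same held for zgc:193505, with 10.30 and 10.02, then 9.61 and 9.45, then 11.24 and 11.13, and for zgc:153846, with 11.49 and 11.82, then 10.87 and 10.59, then 12.18 and 12.02. For zgc:193505 day 21 was above day 12 by 1.65 ± 0.16 (SE; limma, adjusted p = 0.0608), the smallest adjusted p of that pair of days together with stxbp6l. A further 4 uncharacterised genes among the 15 smallest p values of the F-test also had both day 12 pools lowest, with day 12 below day 4 by -1.37 to -0.81.

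Surface epithelium, the keratin-rich layer over the cornea and conjunctiva, read lowest at day 12 in most of its list. It gave 3 of those 13 probe sets, anxa1c, capn9 and krt15. Of 44 list genes on the array, 37 were tested. In 27 of them both day 12 pools lay below the other 4 pools (7.18% of all tested probe sets). At an unadjusted p under 0.05, 24 were lower at day 12 than at day 4 (3.57% of all probe sets) and 26 were higher at day 21 than at day 12 (3.81%). The median difference of the list was -0.58 from day 4 to day 12, 0.71 from day 12 to day 21 and 0.11 from day 4 to day 21, where the median over all probe sets was 0.00 each time. In 8 of the 37 both day 21 pools were the highest (7.39%). None of the 37 passed after adjustment over all probe sets. In whole eyes, fewer epithelial cells in a pool and less RNA in each cannot be told apart.

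Annexin and keratin genes led the list. For anxa1c, an annexin that binds membranes in the presence of calcium, the pools read 10.44 and 10.54 at day 4, 8.87 and 9.10 at day 12 and 10.40 and 10.28 at day 21. The related anxa1b read 10.10 and 9.80, then 9.12 and 8.65, then 10.01 and 9.84, and anxa1a read 13.57 and 13.27, then 12.76 and 12.62, then 13.63 and 13.17. In all 3 annexins the day 12 pools lay under every other pool. Day 12 was below day 4 for anxa1c by -1.51 ± 0.15 (SE; limma, adjusted p = 0.0731).

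Keratins are the filament proteins of epithelial cells. For krt15, a keratin of the basal layer in mammals, the pools read 13.90 and 13.62 at day 4, 12.21 and 11.89 at day 12 and 13.46 and 13.09 at day 21. The difference of day 12 from day 4 was -1.71 ± 0.19 (SE; limma, adjusted p = 0.0731). The keratin krt17 read 11.10 and 10.89, then 9.78 and 8.79, then 10.65 and 10.33. The pools of day 12 stood clear of the rest in both genes. Smaller steps of the same shape were seen for krt4 (12.81 and 12.65, then 12.03 and 11.66, then 12.95 and 12.43) and for krt97 (14.04 and 13.71, then 12.80 and 13.13, then 13.64 and 13.68). The bright keratin krt5 read 14.66 and 14.56, then 14.18 and 14.27, then 14.51 and 14.37, a smaller step in the same order.

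Some list members of cell junctions and some others were lowest at day 12 as well, with their highest pool at day 21. The calcium-dependent protease capn9 read 9.28 and 9.33 at day 4, 7.88 and 7.84 at day 12 and 9.58 and 9.17 at day 21, with day 12 below day 4 by -1.45 ± 0.18 (SE; limma, adjusted p = 0.0775). Periplakin (ppl), which links filaments to desmosomes, read 10.39 and 10.28, then 9.74 and 9.68, then 10.80 and 10.51. Desmoplakin (dspa) read 9.85 and 9.36, then 8.68 and 8.88, then 10.49 and 9.68. In both desmosomal genes the day 12 pools were the lowest 2. The tight junction gene cldni read 11.26 and 11.27, then 10.77 and 10.51, then 11.71 and 11.32. The adherens junction gene cdh1, E-cadherin, read 10.30 and 9.99, then 9.34 and 9.66, then 10.50 and 10.10.

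Some epithelial genes did not share the pattern. The simple-epithelium keratins krt8 (12.89 and 13.22, then 13.24 and 12.75, then 13.64 and 12.84), krt18a.1 (10.07 and 10.85, then 11.17 and 10.46, then 11.37 and 10.62) and krt18b (10.46 and 10.70, then 11.14 and 9.99, then 10.66 and 10.39) varied as much within days as between them. The gene tp63, a regulator of basal epithelial cells, read 8.91 and 8.36, then 8.12 and 8.61, then 8.77 and 8.76. Its groups overlapped. The list's counts depended on single libraries and on the scaling of the arrays: without day 4 pool 1, 13 members in place of 24 were lower at day 12 than at day 4, and without day 21 pool 1, 17 in place of 26 were higher at day 21 than at day 12. Without day 12 pool 1 the counts were 23 and 27. With scaling to the hybridisation controls, which moved the median of all probe sets at day 12 against day 4 to 0.23, the list median was -0.35, 8 members were lower and 17 in place of 27 had both day 12 pools under the rest.

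**Figure D1:**
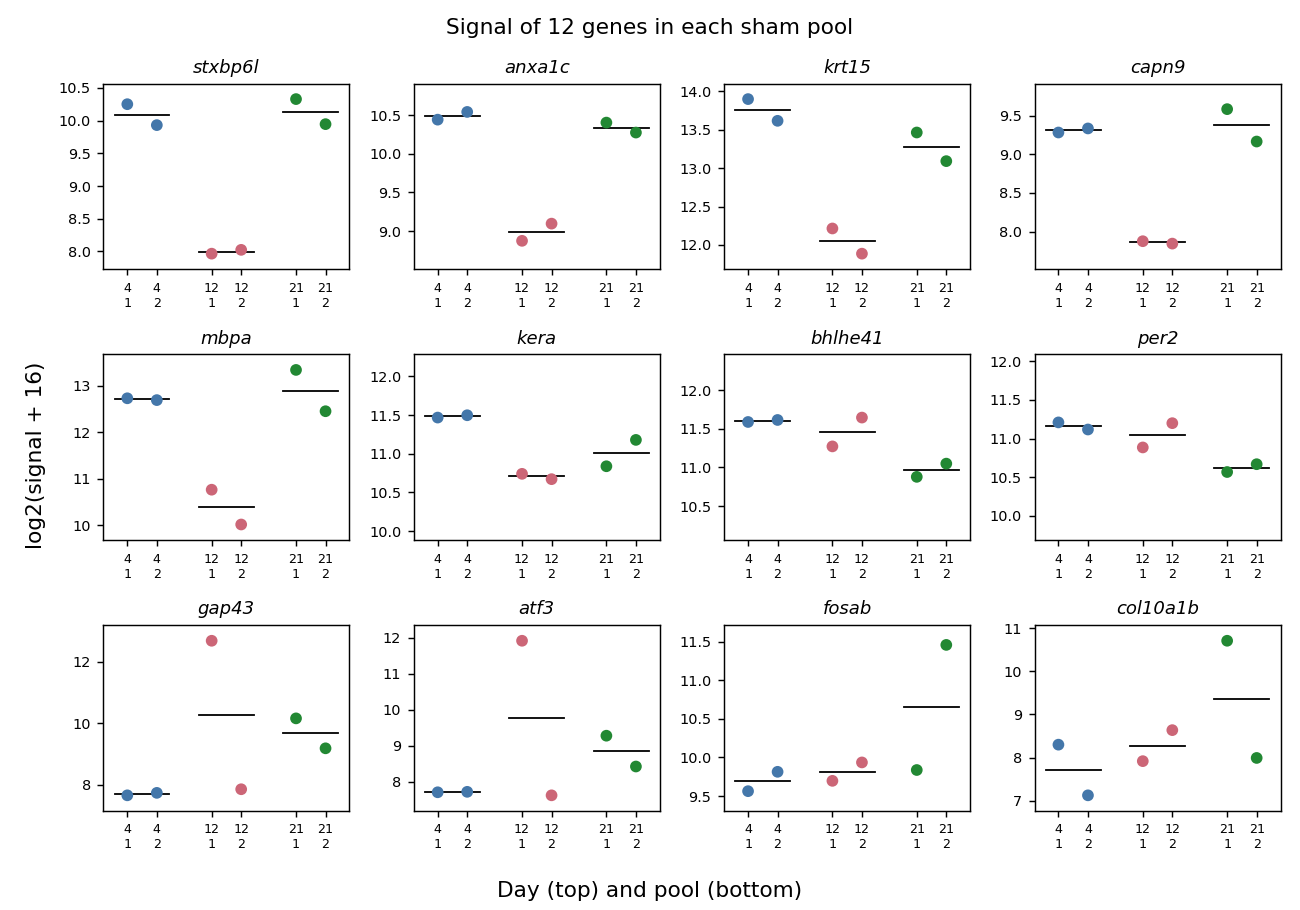
Signal of 12 genes in each of the 6 sham pools, as log2(signal + 16) on the vertical axis, with day (top row) and pool (bottom row) on the horizontal axis and a separate vertical range for each gene. Points are pools and bars are the mean of the 2 pools of a day; in stxbp6l, anxa1c, krt15, capn9, mbpa and kera both day 12 pools are the lowest, while gap43 and atf3 are high in day 12 pool 1 and not in pool 2.

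The corneal stroma beneath this epithelium has its own marker. Keratocan (kera), a proteoglycan that orders the stroma's collagen, read 11.47 and 11.50 at day 4, 10.74 and 10.67 at day 12 and 10.84 and 11.18 at day 21. Both day 4 pools were above the other 4. Day 12 lay below day 4 by -0.78 ± 0.16 (SE; limma, adjusted p = 0.424). Other members of the matrix list, which holds kera, mostly went the other way, and 29 of 34 had a higher mean at day 12 than at day 4.

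Genes of antigen presentation, through which cells display peptides to T cells, also tended to read lowest at day 12. Of 17 tested members, 7 had both day 12 pools below the other 4 (7.18% of all tested probe sets), and 5 were lower than at day 4 at an unadjusted p under 0.05 (3.57%). The invariant chain of class II molecules, cd74a, read 13.56 and 13.48, then 13.11 and 13.10, then 13.91 and 13.57. The light chain of class I molecules, b2m, read 12.96 and 12.99, then 12.53 and 12.74, then 13.04 and 13.00. In both, the day 12 pools lay under the rest. The count of 5 became 0 without day 4 pool 1, 1 without day 4 pool 2, 2 without either day 21 pool, and 0 with scaling to either kind of control. The count of 7 was 3 with scaling to the hybridisation controls and 2 with scaling to the poly-A controls, RNAs added before labelling.

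The class I gene mhc1ufa had the largest root mean square gap between pools of a day, 3.29, among tested probe sets with 1 gene symbol. It read 9.77 and 10.82 at day 4, 10.90 and 5.44 at day 12 and 10.12 and 8.91 at day 21. The low value was that of day 12 pool 2 alone.

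Myelin genes tended to read higher at day 21, by unequal amounts. All 9 tested genes had a higher mean at day 21 than at day 12, with a median difference of 0.43, and 7 of the 9 were highest in day 21 pool 1 (17.8% of all tested probe sets). The median was 0.23 without that library and 0.27 with scaling to the hybridisation controls. From day 4 to day 12, 7 had a lower mean, with a median of -0.16 that was 0.10 without day 12 pool 2 and 0.07 with that scaling. The gene for myelin basic protein, mbpa, read 12.73 and 12.69 at day 4, 10.77 and 10.02 at day 12 and 13.34 and 12.45 at day 21. Both day 12 pools were far below the other 4. Day 12 differed from day 4 by -2.32 ± 0.33 (SE; limma, adjusted p = 0.151), and day 21 from day 12 by 2.502 ± 0.33 (adjusted p = 0.131). Its paralog mbpb read 8.89 and 8.89, then 8.99 and 8.48, then 9.09 and 8.66. The groups of mbpb overlapped. Of the 9 genes, 2 had both day 12 pools lowest (7.18%) and 4 were higher at day 21 than at day 12 at an unadjusted p under 0.05 (3.81%). That count was 2 without either day 4 pool, without day 12 pool 2 or without day 21 pool 1, and 2 with scaling to either kind of control, where mbpa alone had both day 12 pools lowest. The oligodendrocyte claudin cldnk read 8.83 and 9.11, then 9.09 and 8.43, then 10.79 and 9.12, so its high value belonged to day 21 pool 1. The peripheral myelin gene pmp22b read 8.90 and 8.91, then 8.63 and 8.98, then 9.40 and 9.30. Both day 21 pools of pmp22b were the highest, as in cntn1b, a surface protein of axons and glia, with 9.13 and 9.21, then 9.07 and 9.09, then 9.33 and 9.69.

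Clock genes were highest at day 4 more often than the rest of the array. Of 31 tested members, 12 had both day 4 pools above the other 4 pools, against 9.09% of all tested probe sets. At an unadjusted p under 0.05, 8 were lower at day 21 than at day 4 (3.16% of all probe sets) and 6 were lower at day 12 (3.57%). List medians were -0.18 for day 21 against day 4 and -0.14 for day 12 against day 4, the latter 0.09 with scaling to the hybridisation controls. None passed after adjustment. The count of 8 was 1 without day 4 pool 1, 4 without day 21 pool 1 and 5 without day 21 pool 2, so it rested on single libraries. The count of 6 was 1 without day 4 pool 1, 3 without day 4 pool 2, 4 without day 12 pool 1, 12 without day 12 pool 2 and 1 with scaling to either kind of control. With these scalings 4 and 5 members, in place of 12, had both day 4 pools above the rest.

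Some repressors of the clock read lowest at day 21. Both day 21 pools were lowest in 4 of 31 clock genes (7.63% of all tested probe sets). With scaling to the hybridisation and poly-A controls this count was 8 and 7, and 959 and 812 of all 9301 tested probe sets. The repressor bhlhe40 read 13.31 and 13.17 at day 4, 12.85 and 12.98 at day 12 and 12.62 and 12.84 at day 21, and its paralog bhlhe41 read 11.59 and 11.61, then 11.27 and 11.64, then 10.88 and 11.05. The light-induced per2 read 11.21 and 11.12, then 10.88 and 11.20, then 10.57 and 10.67. In bhlhe41 and per2 both day 21 pools were the lowest, while the pools of days 4 and 12 overlapped. Day 21 differed from day 4 by -0.64 ± 0.16 in bhlhe41 and by -0.55 ± 0.15 in per2 (SE; limma, adjusted p = 0.739 in both). A second per2 probe set read 9.25 and 9.21, then 8.57 and 8.79, then 8.73 and 8.31. The cryptochrome cry2 read 9.94 and 9.87, then 9.44 and 9.75, then 9.18 and 9.45, and cry1b read 8.52 and 8.28, then 8.14 and 7.42, then 7.67 and 7.58. Both day 4 pools of these cryptochromes were above all others.

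The activator bmal1b, the partner of Clock, read 8.46 and 8.38 at day 4, 7.50 and 6.59 at day 12 and 7.89 and 7.83 at day 21. Its lowest pools were those of day 12, but like the rest of the clock list it did not pass in the fit on all arrays. Without day 12 pool 1 the difference of day 12 from day 4 was -1.83, a value in which a lone array stands for day 12. The nuclear receptor rorcb read 6.59 in day 12 pool 1 and between 8.70 and 9.21 elsewhere. The melatonin enzyme aanat2 lay between 12.51 and 12.96, with overlapping groups. The clock-controlled repressor ciarta read 8.72 and 8.79, then 8.97 and 8.72, then 8.32 and 8.23, lowest in both day 21 pools. A probe set of the Rev-erb gene nr1d2b read 10.06 and 10.14, then 9.64 and 9.75, then 9.37 and 9.48, highest in both day 4 pools. Symbols per1b and nr1d1 were not found on the array. The hour of collection was not given, and its part in these values was not tested.

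**Figure D2:**
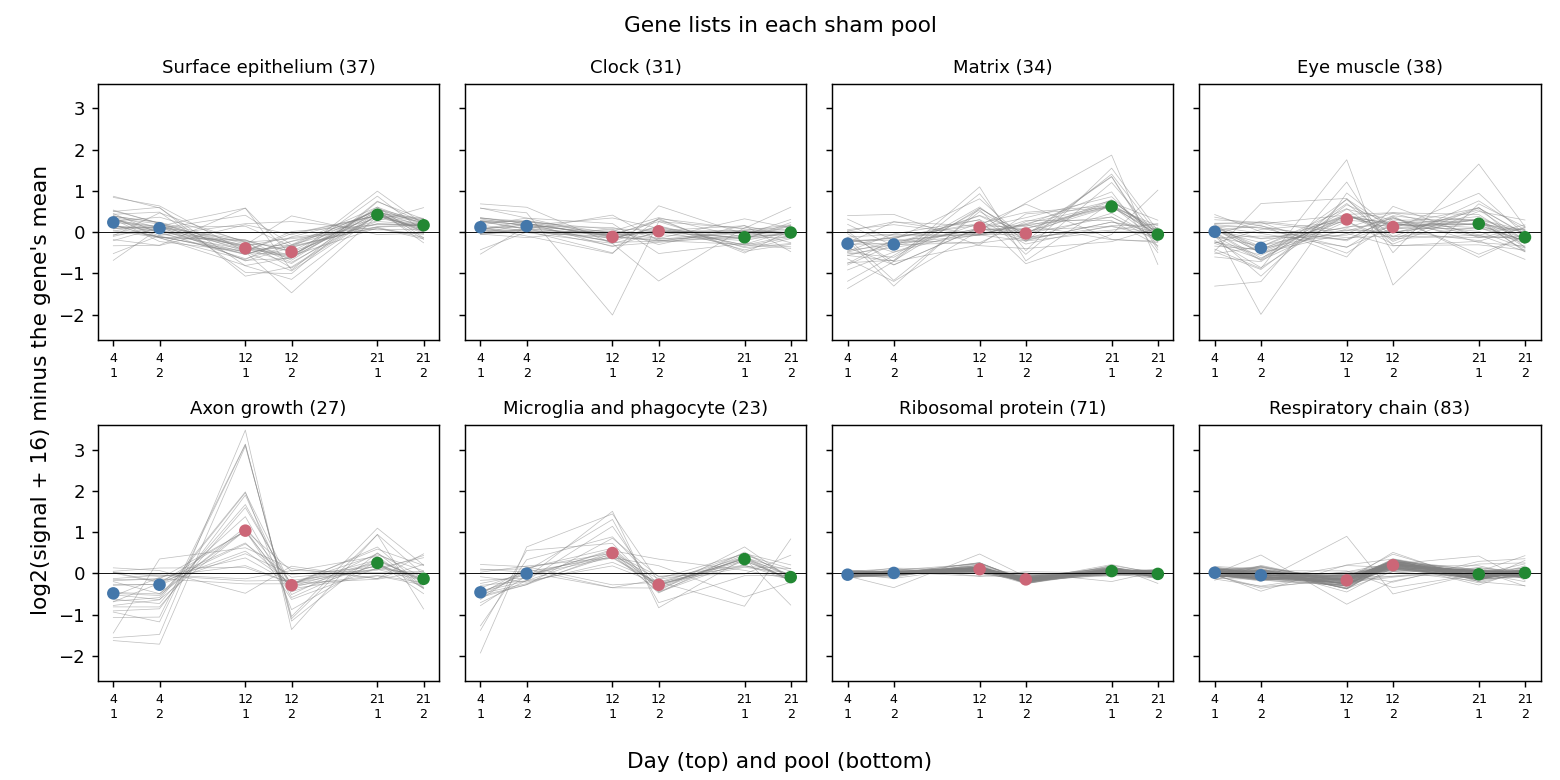
Signal of the tested members of 8 gene lists in each sham pool, as log2(signal + 16) minus the gene's own mean over the 6 arrays on the vertical axis, with day (top row) and pool (bottom row) on the horizontal axis. Grey lines are genes, coloured points are list medians and brackets give the number of genes; surface epithelium dips in both day 12 pools, while axon growth genes peak in day 12 pool 1 alone.

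Photoreceptor genes differed more between the pools of day 12 than between days, and rod genes also differed between the pools of day 21. The median of pool 1 minus pool 2 in rod genes was -0.33 at day 12 and -0.32 at day 21. In cone genes it was -0.40 and -0.11. Of 17 rod genes, 12 were lowest in day 12 pool 1, as were 13 of 17 cone genes, against 21.1% of all tested probe sets. The rod transducin gnat1 read 15.02 and 15.01 at day 4, 14.69 and 15.002 at day 12 and 14.72 and 14.88 at day 21. The cone transducin gnat2 read 14.22 and 14.21, then 13.65 and 14.20, then 14.01 and 14.13. The blue opsin opn1sw2 read 15.02 and 15.01, then 14.51 and 14.87, then 14.79 and 14.87. For gnat1 day 21 pool 1 was nearly as low as day 12 pool 1. In all 3 the lowest value was that of day 12 pool 1. Day 12 pool 2 lay close to day 4 in gnat1 and gnat2, while both day 4 pools of opn1sw2 were above the other 4. With scaling to the hybridisation controls 7 rod and 6 cone genes were lowest there. In 6 rod genes both day 4 pools were above the other 4 (9.09% of all tested probe sets), a count that was 1 with that scaling and 0 with the poly-A controls. The rod channel subunit cnga1a read 11.26 and 11.27, then 10.12 and 11.28, then 10.37 and 10.61, with both day 21 pools below both day 4 pools. Recoverin rcvrn3, a calcium sensor, read 11.77 and 11.87, then 11.77 and 11.61, then 11.41 and 11.50, and the G protein regulator rgs9a, which ends the light response, read 11.00 and 10.96, then 10.82 and 10.68, then 10.51 and 10.54. In these genes the day 21 pools were the lowest. The disc rim gene prph2b read 11.15 and 11.10, then 10.55 and 10.84, then 10.97 and 11.00, and the guanylate cyclase gene gucy2f read 11.85 and 11.53, then 10.95 and 11.40, then 11.16 and 11.51, both lowest in day 12 pool 1.

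The ultraviolet opsin opn1sw1 read 14.998 and 14.92, then 14.59 and 14.79, then 14.82 and 14.85, and the red opsin opn1lw1 read 14.84 and 14.83, then 14.53 and 14.86, then 14.88 and 14.88. Both were lowest in day 12 pool 1. Green opsin opn1mw1 behaved unlike them. It read 11.82 and 12.76 at day 4, 12.13 and 10.45 at day 12 and 11.33 and 11.51 at day 21. Its lowest value was in day 12 pool 2, and its pools differed at days 4 and 12. Phosducin (pdca), which binds transducin's beta and gamma subunits in photoreceptors, was among the genes with the smallest p for day 21 below day 4, with 12.42 and 12.00, then 11.30 and 11.74, then 10.81 and 11.12 on a first probe set. Another of its probe sets read 12.20 and 12.02, then 11.37 and 11.90, then 11.44 and 11.90, so the size of the step depended on the probes.

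Other retinal lists gave few genes with a clear order of days. The median difference of day 12 from day 4 was 0.04 in 10 ganglion cell genes, 0.09 in 19 Mueller glia genes, -0.06 in 9 pigment epithelium genes, -0.10 in 13 synapse genes and -0.21 in 16 interneuron genes. With scaling to the hybridisation controls, the medians of the last 3 were 0.17, 0.13 and 0.02, so their sign rested on the scaling. Leaving out each array in turn also changed the sign in 3 lists. Medians ran from -0.04 to 0.13 in ganglion cell, -0.19 to 0.03 in pigment epithelium and -0.32 to 0.11 in synapse genes. They kept their sign in Mueller glia genes, from 0.02 to 0.10, and in interneuron genes, from -0.44 to -0.03. Among the interneuron genes, 14 of 16 had a lower mean at day 12 than at day 4 and 14 of 16 at day 21. The 14 at day 12 did not hold with scaling to the hybridisation controls, where the list median was 0.02. In 5 interneuron genes both day 4 pools were above the other 4 (9.09% of all tested probe sets), a count that was 1 with scaling to either kind of control. Neither 17 cell cycle genes nor 10 plasma and lipid genes had more than 3 members at an unadjusted p under 0.05 in any pair of days. The 3 were cell cycle genes higher at day 21 than at day 4 (3.4% of all tested probe sets). That count lay between 0 and 5 with each array left out. Of the 17 cell cycle genes, 8 were highest in day 21 pool 1 (17.8%). With scaling to the hybridisation controls it was 5, and 1071 in place of 1653 of all 9301 tested probe sets. On the ganglion cell list thy1, a surface glycoprotein of these cells in mammals, read 10.43 and 10.39, then 10.53 and 10.05, then 11.19 and 10.77, with day 21 highest in both pools. The glial enzyme glulb, a glutamine synthetase of Mueller glia, read 10.53 and 10.66, then 10.64 and 10.43, then 11.27 and 10.96. Both day 21 pools of glulb were above the other 4. The glial filament gfap read 8.53 and 8.59, then 9.27 and 8.91, then 9.69 and 8.63, with both day 4 pools lowest by a small margin and overlap of the later days. The gap junction gene gja1b read 11.33 and 11.21, then 11.15 and 11.24, then 11.51 and 11.54, and ptgdsb.1, a prostaglandin D2 synthase, read 13.21 and 13.15, then 13.01 and 13.04, then 13.41 and 13.33, both highest in the day 21 pools by small amounts. The interneuron regulator tfap2c read 9.14 and 9.19, then 8.52 and 8.67, then 8.77 and 8.89, highest in both day 4 pools. The calcium-binding protein of bipolar cells cabp5b read 10.46 and 10.62, then 9.72 and 10.30, then 10.17 and 10.50, and the neuronal gap junction gene gjd2b read 10.20 and 10.61, then 10.10 and 10.28, then 9.96 and 9.99. The groups of cabp5b overlapped, while both day 21 pools of gjd2b were the lowest. The synaptic vesicle gene syn1, a synapsin, read 7.30 and 7.49, then 8.08 and 7.75, then 7.47 and 7.36, highest in both day 12 pools.

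Outside the neural retina the picture was also mixed. The retinol transporter stra6 of the pigment epithelium read 12.41 and 12.56, then 11.67 and 12.29, then 12.16 and 12.09, lowest in day 12 pool 1. Among genes of dividing cells, the DNA clamp pcna read 10.52 and 10.56, then 10.73 and 10.63, then 11.03 and 10.79, and was highest in both day 21 pools. The ribonucleotide reductase rrm1, which makes DNA building blocks, read 7.62 and 7.44, then 8.22 and 7.61, then 8.18 and 8.16, with overlap. Of 8 lens genes, 6 were lowest in day 12 pool 1 (21.1% of all tested probe sets), or 2 with scaling to the hybridisation controls. The alpha crystallin cryaa read 13.10 in day 4 pool 1 and between 13.46 and 13.85 elsewhere. The lens filament gene bfsp2 read 11.87 and 12.01, then 11.73 and 11.88, then 11.62 and 11.73, and the beta crystallin cryba4 read 13.13 in day 12 pool 1 and between 13.76 and 13.92 elsewhere.

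Extracellular matrix genes tended to read lowest at day 4, while eye muscle genes were often lowest in day 4 pool 2. Medians of the muscle list were 10.23 and 9.88 at day 4, 10.41 and 10.32 at day 12 and 10.48 and 9.90 at day 21. Day 21 pool 2 was thus about as low as day 4 pool 2, and day 4 pool 1 was higher. Of 38 tested muscle genes, 9 had both day 4 pools below the other 4 (9.26% of all tested probe sets), 10 were higher at day 12 than at day 4 at an unadjusted p under 0.05 (2.76%), and 19 were lowest in day 4 pool 2 (12.6%). The fast troponin tnnc2.2 read 10.21 and 9.78, then 11.35 and 10.86, then 11.27 and 10.64. The myosin light chain mylpfa read 12.27 and 12.05, then 12.86 and 12.74, then 12.79 and 12.33, and the skeletal actin acta1a read 6.28 and 6.39, then 8.80 and 7.09, then 9.24 and 7.72. In each, both day 4 pools were lowest. The creatine kinase ckma went another way, with 12.94 and 12.72, then 12.37 and 12.97, then 11.97 and 12.49. The calcium pump atp2a1l read 11.06 and 11.05, then 11.27 and 10.88, then 10.65 and 10.19, lowest in both day 21 pools, and 4 muscle genes were lower at day 21 than at day 12 at an unadjusted p under 0.05 (2.33%), a count that was 0 without day 21 pool 2 and 7 without day 21 pool 1. Without day 4 pool 2 the count of 10 was 1, and without day 12 pool 1 it was 6. That count was 17 with scaling to the hybridisation controls and 16 with the poly-A controls. Over all 9301 tested probe sets up to 1348, in place of 257, were higher at day 12 under one of the scalings. The array's own control for a skeletal muscle actin had a 3′ minus 5′ gap between 0.84 and 2.70, and its part in the muscle values was not tested.

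Of 34 tested matrix genes, 14 had both day 4 pools lowest (9.26% of all tested probe sets). At an unadjusted p under 0.05, 12 were higher at day 21 than at day 4 (3.4%), and the list had a median difference of 0.63. That median was 0.27 without day 21 pool 1 and 0.97 without day 21 pool 2. Of the 34, 22 were highest in day 21 pool 1 (17.8%). Without that library the count of 12 was 4, without day 4 pool 2 it was 7, and without day 4 pool 1 it was 8; without day 21 pool 2 it was 18. The fibrillar collagen gene col1a1a read 11.805 and 10.70 at day 4, 12.58 and 11.93 at day 12 and 13.35 and 11.64 at day 21. Its pools differed most at day 21. The cartilage collagen col2a1a read 8.76 and 8.92, then 9.23 and 9.50, then 9.95 and 9.37, and col9a3, a subunit of a collagen bound to it, read 8.28 and 8.55, then 8.93 and 8.84, then 9.46 and 9.0. Both genes had their lowest pools at day 4, as did the thrombospondin thbs4b, a matrix protein of tendon and muscle, with 7.31 and 7.75, then 8.44 and 8.71, then 8.88 and 8.28. The gelatinase mmp9 read 6.80 and 7.45, then 9.09 and 7.71, then 9.71 and 8.19, and the fibronectin fn1b read 8.02 and 8.65, then 9.82 and 8.98, then 10.62 and 9.16. Pool 1 was the higher pool at both later days in these 2 genes. The hypertrophic cartilage collagen col10a1b read 10.71 in day 21 pool 1 and between 7.13 and 8.64 in the other 5.

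Genes of protein turnover and stress made small steps. In 18 of 41 proteasome genes both day 4 pools were below the other 4 (9.26% of all tested probe sets), but the median difference was 0.13 at day 12 and 0.16 at day 21, and 1 and 0 members had an unadjusted p under 0.05. With scaling to the hybridisation controls 21 members, in place of 1, were higher at day 12 at that level, and 29 in place of 18 had both day 4 pools lowest. Over all 9301 tested probe sets, 2051 in place of 861 had that order with this scaling. Up to 1348 in place of 257 were higher at day 12 under one of the scalings. This scaling thus raised both counts over the whole array too. The 21 and 29 of 41 proteasome genes were still larger shares than those of all tested probe sets. At day 21 the count of 0 was at most 3 under any scaling run. The catalytic subunit psmb5 read 9.51 and 9.63, then 10.14 and 10.02, then 9.75 and 9.89. The immunoproteasome-related subunits psmb13a and psmb12 went another way, with 8.09 and 8.19, then 7.64 and 7.90, then 8.46 and 8.38 for psmb13a, and both were highest in the day 21 pools. A typical member is psmc4, an ATPase of the proteasome's cap, with 10.52 and 10.36, then 10.74 and 10.75, then 10.70 and 10.69. In the stress list, 10 of 49 had both day 4 pools lowest (9.26%), or 18 with scaling to the hybridisation controls (2051 of all 9301 tested probe sets). The gene txnb, a thioredoxin, read 9.72 and 9.59, then 10.62 and 10.24, then 10.68 and 10.61, with day 21 above day 4 by 0.99 ± 0.17 (SE; limma, adjusted p = 0.739). No pool of day 4 reached a later pool in txnb. The heat shock factor hsf2 read 9.74 and 9.59, then 9.87 and 9.57, then 9.17 and 8.93, lowest in both day 21 pools. The calreticulin calr3b, a chaperone of the endoplasmic reticulum, read 7.98 and 7.49, then 8.58 and 8.42, then 8.23 and 8.52, lowest in both day 4 pools.

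A few other genes stood out by rank of p. The signalosome subunit cops4, on a probe set that may also take up other transcripts, read 7.07 and 6.85 at day 4, 8.68 and 8.05 at day 12 and 9.12 and 9.14 at day 21, with day 21 above day 4 by 2.17 ± 0.23 (SE; limma, adjusted p = 0.264). Its other probe sets lay between 9.50 and 9.83 and, with day 21 lowest, between 7.96 and 8.82. The lipase inhibitor angptl4 read 9.51 and 9.55, then 9.45 and 9.44, then 8.56 and 8.76. The pools of day 21 alone were low for angptl4. The secreted glycoprotein fstl1b read 8.06 and 7.41, then 7.70 and 7.33, then 9.59 and 8.96, high in both day 21 pools. The claudin cldng read 12.69 and 13.31, then 14.04 and 14.44, then 12.72 and 11.96 on its most variable probe set, whereas another lay between 12.98 and 13.23 on all arrays. A further one went the other way at day 12, with 13.39 and 13.46, then 13.03 and 12.93, then 13.35 and 13.42. Probe sets of cldng thus disagreed. Among the smallest p values for day 12 above day 4 was tcnbb, a cobalamin carrier, with 7.98 and 8.25, then 9.21 and 9.13, then 9.06 and 8.54, a difference of 1.05 ± 0.21 (SE; limma, adjusted p = 0.424). The translocon subunit ssr1 read 8.09 and 7.88, then 8.74 and 8.77, then 8.29 and 8.43, the endoplasmic reticulum protein rcn3 6.49 and 6.72, then 7.55 and 7.93, then 8.03 and 7.57, and the growth factor binding protein igfbp2a 7.91 and 7.72, then 8.44 and 8.91, then 8.57 and 8.59. In each of these 4 both day 4 pools were the lowest. The dynein light intermediate chain dync1li1 and the phosphatase tigarb gave differences of 0.85 and 0.82.

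At day 21 a few more genes stood clear of the earlier days. The actin-binding calponin cnn3b read 8.42 and 8.55, then 8.57 and 8.60, then 9.38 and 9.14, and the linker histone histh1l1 read 12.33 and 12.17, then 12.31 and 11.96, then 11.56 and 11.61. The chloride channel relative clic5b read 10.27 and 10.17, then 10.04 and 10.04, then 9.61 and 9.56. The day 21 pools lay outside the range of the other 4 in all 3, above it for cnn3b and below it for the others. The smallest p values for day 21 below day 12 were those of the uncharacterised si:dkey-100n23.3, with 9.77 and 9.61, then 9.74 and 10.22, then 8.52 and 8.84, and of cldng and angptl4, given above (limma, adjusted p = 0.249, 0.250 and 0.349). They were followed by gpc1b, a heparan sulphate proteoglycan, with 8.71 and 8.64, then 9.25 and 9.15, then 8.42 and 8.60, and by zfand3, with 8.14 and 7.92, then 8.39 and 8.24, then 7.59 and 7.37 (limma, adjusted p = 0.396 in both). The last 3 of the 8, vps37a of vesicle sorting, the proteasome phosphatase ublcp1 and the mitochondrial stress gene dele1, gave differences of -0.72, -0.80 and -1.10.

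**Figure D3:**
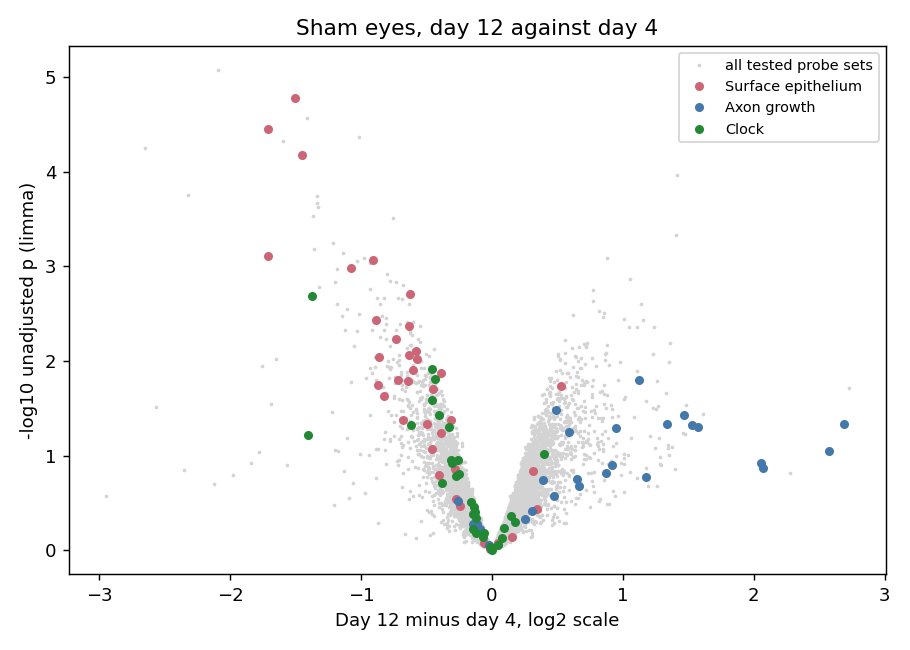
Difference of day 12 from day 4 (horizontal axis, log2 scale, mean of 2 pools each) against -log10 of the unadjusted limma p (vertical axis) for 9301 probe sets, with members of 3 lists coloured. Surface epithelium lies to the left at small p, and axon growth genes lie to the right with large differences at larger p values.

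Genes of axon growth were among those that set day 12 pool 1 apart, with 14 of the 41 probe sets that were more than 1 above all other arrays there. Of 27 tested members, 22 were highest in that library, against 21.4% of all tested probe sets. The list median was 9.50 and 9.50 at day 4, 11.43 and 9.50 at day 12 and 10.65 and 9.98 at day 21. The median gap between pool 1 and pool 2 was 1.36 at day 12, 0.39 at day 21 and 0.00 at day 4. At an unadjusted p under 0.05, 6 members were higher at day 12 than at day 4 (2.76% of all tested probe sets). This count was 0 without day 12 pool 1, 19 without day 12 pool 2, 1 without either day 4 pool, 3 without day 21 pool 1 and 2 without day 21 pool 2. It was 3 with quantile normalization and 12 with scaling to the poly-A controls. The count of 22 lay between 20 and 23 under the 4 other scalings. It was 23 with the hybridisation controls, where that library was highest for 4673 of all 9301 tested probe sets.

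The genes involved span the injury response of neurons. The stress-induced transcription factor atf3 read 7.71 and 7.72 at day 4, 11.91 and 7.63 at day 12 and 9.28 and 8.43 at day 21, and sox11b, a factor of young and regrowing neurons, read 7.44 and 7.49, then 10.24 and 7.83, then 8.83 and 8.23. The beta tubulin tubb5 read 8.81 and 8.73, then 13.52 and 9.40, then 11.54 and 10.64. In all 3 day 12 pool 1 was highest, the day 21 pools came next, and the day 4 pools were the closest pair. The intermediate filament inab read 9.81 and 9.95, then 12.55 and 10.28, then 10.84 and 10.10. The microtubule regulator stmn4 read 9.86 and 9.95, then 12.51 and 9.65, then 10.83 and 10.38. The neuropeptide gene adcyap1b, named after its values were seen, read 8.97 and 9.03, then 11.57 and 9.01, then 9.57 and 9.40. The neuronal intermediate filament prph, peripherin, read 6.47 and 6.23, then 10.52 and 6.30, then 8.34 and 6.54 on its tested probe set. Its probe sets disagreed at day 21. Below the filter, another read 5.58 and 5.25, then 9.33 and 5.60, then 8.31 and 8.03. A further one read 5.64 and 5.56, then 8.90 and 5.77, then 7.35 and 7.29, so both day 21 pools were raised on these. The dimmest read 4.43 and 5.19, then 7.88 and 4.37, then 5.65 and 4.93. The tubulin gene tuba1b read 10.24 and 10.12, then 11.801 and 10.81, then 11.17 and 10.38, with both day 4 pools lowest, and tubb2b read 12.46 and 12.45, then 13.20 and 12.70, then 12.88 and 12.65. Other growth genes did not follow: tuba5 read 10.12 and 10.14, then 10.02 and 10.02, then 10.86 and 10.46, and marcksl1b read 13.77 and 13.72, then 13.63 and 13.83, then 13.78 and 13.81.

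At day 21 gap43, atf3, sox11b and tubb5 lay above day 4 in both pools. In 10 of the 27 axon growth genes both day 4 pools were below the other 4, against 9.26% of all probe sets. That count was 16 with scaling to the hybridisation controls, where 2051 of all 9301 tested probe sets, in place of 861, had this order. Day 21 differed from day 4 by 1.98 ± 1.31 in gap43 (SE; limma, adjusted p = 0.790) and by 2.32 ± 1.12 in tubb5 (adjusted p = 0.753). Ganglion cell elavl4, an RNA-binding protein of neurons, read 9.38 and 9.35, then 11.10 and 9.52, then 9.88 and 9.42, so it too was high in day 12 pool 1.

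Phagocyte genes were also high in that library. Of 23 tested microglia and phagocyte genes, 17 were highest in day 12 pool 1 (21.4% of all tested probe sets) and 14 were lowest in day 4 pool 1 (16.8%). List medians were 8.51 and 9.03 at day 4, 9.71 and 8.90 at day 12 and 9.55 and 9.01 at day 21. The myeloid regulator spi1b read 7.05 and 7.58, then 8.90 and 7.30, then 8.05 and 7.64. The lysozyme gene lyz read 7.52 in day 4 pool 1 and between 8.48 and 9.63 in the other 5. The growth factor granulin, grna.1, read 8.51 and 11.08, then 11.88 and 10.23, then 9.64 and 11.27, with its pools apart at every day. The chemokine receptor cxcr4b read 7.88 and 8.60, then 9.21 and 9.005, then 8.73 and 8.52, highest in both day 12 pools. The lysosomal protease ctsba, cathepsin B, read 11.26 and 11.41, then 11.61 and 11.42, then 10.66 and 11.01, lowest in both day 21 pools. The antigen-presentation genes cd74a and b2m, also on this list, did not share the peak.

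Ribosomal and respiratory genes split the pools of day 12 in opposite ways by small amounts. Of 71 ribosomal protein genes, 47 were highest in day 12 pool 1 (21.4% of all tested probe sets) and 62 lowest in day 12 pool 2 (18.1%). The median gap between the pools was 0.25. Of 83 respiratory chain genes, 71 were highest in day 12 pool 2 (18.1%) and 55 lowest in day 12 pool 1 (21.1%), with a median gap of -0.38. These splits depended on the scaling. Day 12 pool 1 was highest for 71 and 12 ribosomal genes with scaling to the hybridisation and poly-A controls, and for 4673 and 1198 of all 9301 tested probe sets. Day 12 pool 2 was lowest for 36 ribosomal genes with quantile normalization, 18 with the hybridisation controls and 0 with the poly-A controls. Over all tested probe sets it was lowest for 1522, 936 and 341. Day 12 pool 2 was highest for 66 to 74 respiratory genes under every scaling run, but day 12 pool 1 was lowest for only 6 with the hybridisation controls. The count of 74 came with the poly-A controls, where day 12 pool 2 was highest for 4588 of all tested probe sets in place of 1688. Day 12 pool 1 was lowest for 458 of all tested probe sets with the hybridisation controls. The ATP synthase subunit gene atp5mea read 11.70 and 12.15, then 10.95 and 11.51, then 11.93 and 11.95, with both day 12 pools lowest. Ribosomal rplp0 read 14.71 and 14.73, then 14.68 and 14.51, then 14.78 and 14.67.

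**Figure D4:**
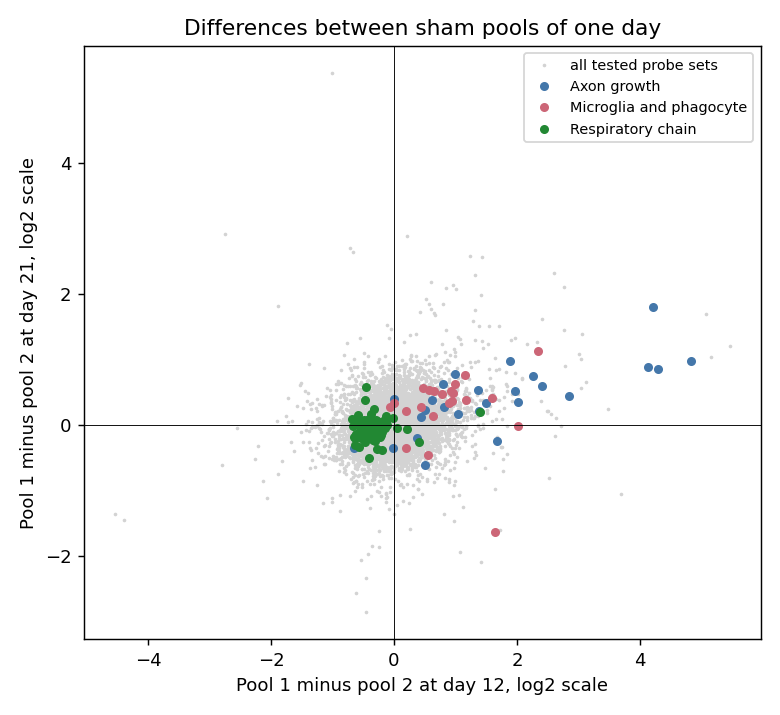
Pool 1 minus pool 2 at day 12 (horizontal axis) against pool 1 minus pool 2 at day 21 (vertical axis), both on the log2 scale, for 9301 probe sets, with members of 3 lists coloured. Axon growth and phagocyte genes lie to the right, high in day 12 pool 1, and respiratory chain genes lie just left of 0.

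Blood gave the widest spread among bright genes. The globin hbaa1 read 13.95 and 14.44 at day 4, 13.76 and 14.82 at day 12 and 13.44 and 13.65 at day 21, and the red cell anion exchanger slc4a1a read 8.38 and 9.30, then 7.54 and 10.09, then 7.69 and 7.74. Pool 2 was the higher pool at all 3 days in both. Of 13 red blood cell genes, 9 were highest in day 12 pool 2 (18.1%). The haem synthesis gene alas2 read 9.18 and 9.78, then 9.16 and 10.30, then 8.88 and 8.57.

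Some immediate early genes, a class that responds to stimuli within minutes, were highest in day 21 pool 2. The gene fosab read 9.56 and 9.81, then 9.70 and 9.94, then 9.84 and 11.46, and its 3 other probe sets were also highest there. Likewise jdp2b read 7.93 and 7.94, then 8.39 and 8.13, then 8.20 and 9.78, and the shear-responsive klf2b read 7.69 and 8.36, then 8.08 and 8.22, then 8.39 and 9.50. Of 42 tested members, 10 were highest in day 21 pool 2 (13.4% of all tested probe sets), and egr1, with 9.51 and 9.81, then 9.76 and 9.93, then 9.09 and 9.53, was not. More members were highest at day 12, namely 13 in pool 1 (21.4%) and 11 in pool 2 (18.1%). The 13 became 21 with scaling to the hybridisation controls, where day 12 pool 1 was highest for 4673 of all 9301 tested probe sets. The glucocorticoid-induced klf9 read 9.42 and 9.93, then 10.73 and 9.98, then 9.62 and 9.73, and the stress gene gadd45ga read 8.45 and 9.19, then 9.63 and 9.69, then 8.42 and 9.36, both highest in the day 12 pools. Day 4 pool 1 was the lowest array for 14 of the 42 (16.8%). With scaling to either kind of control the count of 10 was 6, and with the poly-A controls the count of 14 was 23.

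Some egg coat genes, expected in the ovary and not in the eye of a male, were low in 5 pools. The gene zp2.6 read 7.63 in day 4 pool 2 and between 4.31 and 4.70 in the other 5. The gene zp3.1 read 7.56 in that pool and between 4.62 and 5.89 elsewhere. Highest there as well was zp3a.1, at 7.01. Others did not share this: zp3b read 6.74 and 6.36, then 6.33 and 6.65, then 6.54 and 6.38. Day 21 pool 2 was highest for zp3c, at 5.96 against 5.84 in day 4 pool 2. Of 31 oocyte genes on the array only 3 passed the filter, and 12 of the 31 were highest in day 4 pool 2. The share of 13.8% among all tested probe sets was taken above the filter. It is therefore no like baseline for these mostly dim genes. Their median was 5.44 and 5.84 at day 4, 5.39 and 5.37 at day 12 and 5.23 and 5.56 at day 21.

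Several other genes had wide gaps between pools of a day. The thymosin gene tmsb read 6.81 and 6.50, then 11.48 and 6.40, then 9.67 and 7.97, following gap43. The gene slc25a14, a mitochondrial carrier, read 8.64 and 8.00, then 8.32 and 4.63, then 7.40 and 8.44, and dhrs12la, a dehydrogenase relative, read 9.15 and 9.21, then 9.15 and 6.09, then 10.78 and 9.39. In both the low value was that of day 12 pool 2. A brighter probe set of slc25a14 read 5.79 in that pool and between 7.61 and 8.47 elsewhere. Another, below the filter, read 6.46 there and between 5.95 and 5.97 elsewhere, so the probe sets of slc25a14 disagreed. The apolipoprotein gene apoc1 read 10.42 and 11.12, then 13.04 and 10.29, then 12.13 and 10.68, high in pool 1 at both later days. A fatty acid binding protein of glia, fabp7a, had the same order, at 10.49 and 10.37, then 12.63 and 10.73, then 12.21 and 10.90. The retinol-binding rbp2a read 8.77 and 8.97, then 9.03 and 8.49, then 7.51 and 8.34, lowest in both day 21 pools. The parvalbumin pvalb2 read 7.72 and 7.25, then 9.89 and 6.85, then 8.82 and 8.25.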

How the data were processed

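Eyes were measured on the Affymetrix zebrafish array. The deposited table gives the signal intensity of each probe set on each array. Per the submitters' processing notes it comes from MAS5, whose version is not given in the sources used here. Per the labels' protocols, 8 ug of total RNA from each pool was labelled with biotin. The 6 SHAM arrays were taken as log2(signal + 16) without further scaling. Of 15502 probe sets other than controls, 10795 have 1 gene symbol in the platform annotation, 135 several and 4572 none, and 10711 of the named ones were found in the RefSeq gene table. The upper 60% by mean were fitted with limma 3.58.1 in R 4.3.3, with 1 mean per day, no covariate and a trended prior, which left 3 residual and 4.19 prior degrees of freedom. Adjusted p values are Benjamini-Hochberg over 9301 probe sets, at 0.05. The fit was tested on simulated data. SE is the moderated standard error of a difference.

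Named genes were the 15 probe sets with 1 symbol and the smallest F-test p, the 8 with the smallest p in each direction of each pair of days, the 60 with the highest signal, the 15 with the widest gap between pools, the 3 members of each of 25 gene lists with the smallest F-test p, and 24 fixed genes. Other list members and genes were named after their values were seen, to show where a list held and where it did not. Where several probe sets stand for a list gene, the brightest one enters its list. The members and lists were chosen with earlier results of these data known. With 2 pools a day, p values measure the spread between pools only, and the small number of arrays limits the precision. The alternatives were other offsets, filters, normalizations, variance models and thresholds, a pool block, and each array left out.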

Additional observations from a re-analysis of the deposited data

How the results depend on the processing

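In the fit as reported no probe set passed for the F-test or for a pair of days. With arrays scaled to the poly-A controls, 4 passed for the F-test, 5 for day 12 against day 4, 1 for day 21 against day 4 and 3 for day 21 against day 12. Robust moderation gave 1 for the F-test, 5 for day 12 against day 4 and 2 for day 21 against day 12, and array weights gave 1 for day 21 against day 4. With the pool number as a block, 3, 7 and 6 passed for the F-test, day 12 against day 4 and day 21 against day 12. Correlations of pool 2 minus pool 1 were -0.025 between days 4 and 12, 0.0504 between days 4 and 21 and 0.234 between days 12 and 21. These values cannot show whether pools of equal number were handled together, so pairing of the pools was not tested. An adjusted p under 0.1 gave 1 for the F-test, 8 for day 12 against day 4 and 2 for day 21 against day 12. An unadjusted p under 0.01 with a difference of at least 1 gave 55 for the F-test and 42, 15 and 47 for day 12 against day 4, day 21 against day 4 and day 21 against day 12.

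With each array left out in turn, calls ranged from 0 to 29 for the F-test, from 0 to 104 for day 12 against day 4, from 0 to 2 for day 21 against day 4 and from 0 to 15 for day 21 against day 12. All nonzero counts came without a day 12 array: 3, 15, 1 and 8 without pool 1 and 29, 104, 2 and 15 without pool 2, and the cause was not tested. Other offsets, filters and normalizations and a prior without trend gave 0 calls. For 51 differences of named genes, 903 comparisons with 18 settings gave the same side of the threshold in 859, a newly passed threshold in 44 and no reversal. These differences were picked by small p in the same arrays, and none passed in the fit as reported. The tally therefore cannot show that they are stable. The list counts and array orders under these settings were added after seeing the data. Signals near the filter limit carry more noise from background, and no detection calls were used.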
